A study of Homo sapiens with 4 samples.

Results

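Transcripts of ATF4 and 8 genes of its stress response were compared between U87MG cells given an expression vector for the microRNA miR-490 and U87MG cells given a control vector. U87MG is a permanent line derived from a human glioma. The 9 genes were ATF4, DDIT3, DDIT4, TRIB3, CHAC1, ASNS, SESN2, NUPR1 and PPP1R15A, and they were measured by 16 of the 49293 probe sets of the arrays. A probe set was kept when the platform annotation gave it exactly 1 gene symbol and that symbol was one of the 9, and no probe set of these genes was dropped as dim. The 9 genes were selected on the fold changes between these same groups, which were known from an earlier look at the arrays. The miR-490 group consisted of U87MG cells with the overexpression vector PC-490, and the control group of U87MG cells with its control vector PCDNA, given as PCDNA3.1 (+) in the study's title. RNA was taken 48 h after transfection, and each group had 2 PrimeView arrays. The controls received plasmid too, and no measure of transfection stress or of its evenness between the groups was used here. The labels give neither the promoter of the vector nor the share of cells that took it up, and they do not say whether the 2 arrays of a group came from separate cultures. Differences are therefore set against a spread that may be technical.

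ATF4 is a transcription factor whose protein is made preferentially when the translation factor eIF2 is phosphorylated, which happens on amino acid shortage, misfolded protein in the endoplasmic reticulum, heme shortage or double-stranded RNA. This route is called the integrated stress response. ATF4 pairs with C/EBP proteins and other bZIP factors and switches on genes of amino acid supply, redox balance and, under lasting stress, cell death. In glioma cells the same route is known for its part in survival under low nutrients and low oxygen. Because ATF4 is regulated mainly through translation, its own transcript level and the levels of its target transcripts are different readouts.

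The agent of the study is shown first, because both of its mature strands can arise from the transfected precursor. The sequences are from RefSeq (GRCh38.p14) and lie on the plus strand of chromosome 7, and capitals mark the seed, bases 2 to 8, with which a microRNA recognises its targets. The arrays gave no reading of the microRNA that was used here.
hsa-miR-490-3p: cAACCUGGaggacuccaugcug
hsa-miR-490-5p: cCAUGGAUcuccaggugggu

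The promoters that bear on ATF4 regulation of these genes are shown next. Windows of 250 bases before to 50 bases after the transcription start, from RefSeq (GRCh38.p14), were found for 8 of the 9 genes by symbol, 13 windows in all because of alternative starts. They were searched on both strands for TGATGNAA, the composite site that ATF4 binds together with a C/EBP partner, for TGACGTCA, the full cyclic AMP response element, and for the endoplasmic reticulum stress element (ERSE). TGATGNAA was found in 2 of the 13 windows, those of ASNS and CHAC1, and in 3.62% of all 35116 windows in the table. TGACGTCA was found once, in PPP1R15A, and in 1.85% of all windows. An exact match to the stress element was found in 0 of the 13 windows and in 0.0769% of all windows. Near matches were not counted, such as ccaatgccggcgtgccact in the DDIT3 windows, which differs from the pattern at its last base. No matches overlapped. The 3 windows with a match are printed 5′ to 3′ on the strand of the gene, with the match in capitals. That of ASNS is chr7:97872359-97872658 (minus strand), with the match 68 to 61 bases before the start. That of CHAC1 is chr15:40953221-40953520 (plus strand), with a match to the reverse strand 209 to 202 bases before the start. That of PPP1R15A is chr19:48872171-48872470 (plus strand), with the match 58 to 51 bases before the start.
ASNS: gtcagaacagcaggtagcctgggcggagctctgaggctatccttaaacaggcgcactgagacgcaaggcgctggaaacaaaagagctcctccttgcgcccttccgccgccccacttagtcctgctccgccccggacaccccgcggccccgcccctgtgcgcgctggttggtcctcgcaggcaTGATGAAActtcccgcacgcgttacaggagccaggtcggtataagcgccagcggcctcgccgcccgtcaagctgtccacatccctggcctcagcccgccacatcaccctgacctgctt
CHAC1: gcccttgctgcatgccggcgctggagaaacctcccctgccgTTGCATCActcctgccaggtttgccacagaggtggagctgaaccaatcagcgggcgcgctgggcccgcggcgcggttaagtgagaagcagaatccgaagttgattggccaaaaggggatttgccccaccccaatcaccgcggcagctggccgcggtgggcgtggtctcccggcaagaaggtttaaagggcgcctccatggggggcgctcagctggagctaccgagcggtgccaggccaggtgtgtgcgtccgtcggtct
PPP1R15A: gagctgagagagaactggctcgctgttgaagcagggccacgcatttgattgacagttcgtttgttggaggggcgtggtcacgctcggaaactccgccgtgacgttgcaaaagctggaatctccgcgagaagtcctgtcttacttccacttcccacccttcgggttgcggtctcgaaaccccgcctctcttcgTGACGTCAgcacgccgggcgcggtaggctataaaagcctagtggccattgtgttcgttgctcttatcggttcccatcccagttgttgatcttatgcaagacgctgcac

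The arrays of the 2 groups were about as alike as replicates. Array medians of the log2 values were 5.16 and 5.17 with the miR-490 vector and 5.15 and 5.16 with the control vector. Over all probe sets, log2 differences between arrays had an SD of 0.162 for the miR-490 pair, 0.182 for the control pair and 0.162 to 0.176 for pairs from different groups. Of the markers of the mesenchymal glioma state, 5 of 6 measured genes lay above the level of the median probe set, with VIM at a mean of 13.92 on the log2 scale and NES, at 4.15, below it. Of the 5 astroglial and oligodendroglial markers, GFAP at 5.71 and SOX10 at 5.33 lay above that level, and S100B, OLIG2 and AQP4 below it. All 4 leukocyte and all 3 epithelial markers measured lay below the level of the median probe set, while 1 of 4 neuronal markers, SNAP25 at 8.58, and 1 of 3 endothelial markers, VWF at 5.29, lay above it.

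The differences between the vectors were small for every member. Asparagine synthetase, ASNS, was lower in both miR-490 arrays than in both control arrays on all 4 of its probe sets, at 0.821 to 0.853 of the control level. NUPR1 at 0.856, the brighter set of TRIB3 at 0.850, ATF4 at 0.914 and the brighter set of SESN2 at 0.923 lay on the same side without overlap. PPP1R15A lay on the other side, at 1.10 times the control level. DDIT3, DDIT4 and CHAC1 had overlapping groups on every probe set. None of the 16 probe sets passed the threshold of an adjusted p of 0.05 over all 49293 probe sets (limma with Benjamini-Hochberg adjustment, smallest adjusted p of the members 0.900), and neither did any other probe set, so the share called was 0%. Without adjustment, 6 member probe sets were lower at a p under 0.05, 4 of them of ASNS and 1 each of TRIB3 and NUPR1, and 0 were higher, where 2.48% of all probe sets were lower and 2.66% higher at that level. The groups did not overlap in 8 member sets on the lower side and 1 on the higher side, against 15.6% of all probe sets on each side. These members were chosen with the results of this contrast known, so their counts are a description and nothing is read from the shares. The median log2 fold change was -0.12 over the 16 probe sets and 0 over all probe sets, and 13 of the 16 had a lower mean, against 49.0% of all probe sets. Read at the brightest set of each gene, 7 of the 9 genes were lower, with a median of -0.115. These figures are likewise a description of the chosen members, and nothing is read from the share. Some markers of other cell types were also lower with miR-490, the leukocyte markers at low levels and the neuronal marker SNAP25 at a mean of 8.58. For the 4 leukocyte markers the median difference was -0.15 (log2), and 2 of them did not overlap. CD3E read 3.17 and 3.30 with miR-490, against 3.47 and 3.58 in controls, and PTPRC read 2.43 and 2.48 with miR-490, against 2.62 and 2.61 in controls. The summed linear level of the 4 was 41.7 to 42.2 with miR-490 and 43.6 to 51.2 in controls. The leukocyte list did not stand alone in this. The mesenchymal sum was 36310 to 36564 with miR-490 and 36879 to 36964 in controls. The neuronal sum was 401 to 427 with miR-490 and 453 to 458 in controls. The astroglial and oligodendroglial, endothelial and epithelial sums overlapped between the groups. SNAP25 read 8.47 and 8.54 with miR-490, against 8.65 and 8.67 in controls. The other neuronal markers overlapped, with log2 fold changes of -0.090 for SYT1, -0.015 for STMN2 and 0.025 for RBFOX3. The endothelial marker PECAM1 was higher, at 4.13 and 4.26 with miR-490, against 3.97 and 4.06 in controls. The other endothelial markers overlapped, CDH5 at -0.020 and VWF at -0.015 (log2 fold change). The medians of the mesenchymal, astroglial and oligodendroglial, neuronal, endothelial and epithelial lists were 0, -0.065, -0.0525, -0.015 and -0.005. The part of these markers in the members' differences was not tested. In a bulk culture, fewer cells expressing a gene and less of its RNA per cell cannot be told apart.

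**Figure D1:**
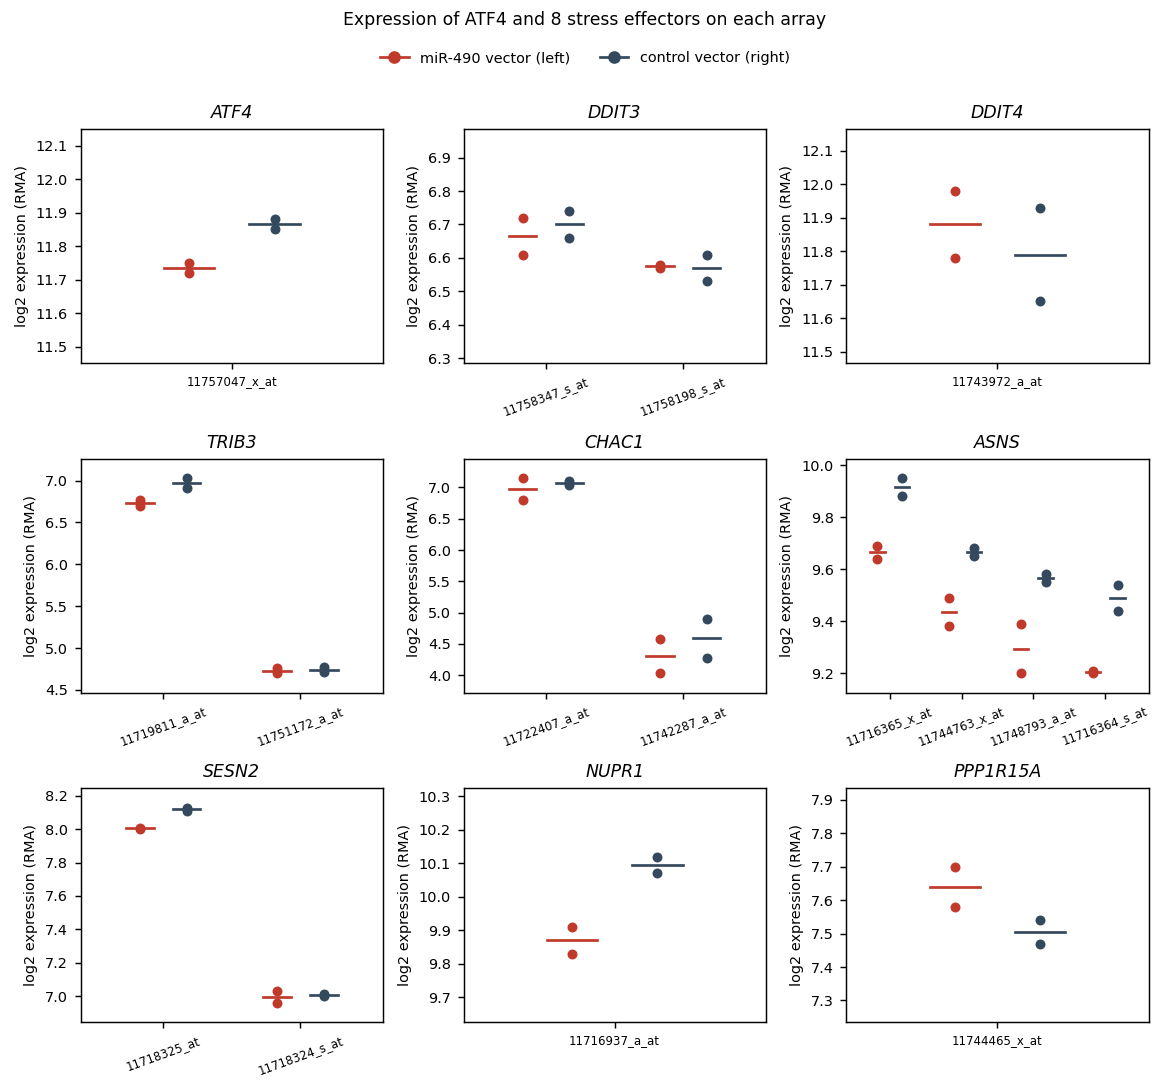
Log2 expression (RMA) of each probe set of the 9 genes on each array, with the 2 miR-490 arrays on the left and the 2 control arrays on the right of each pair. Points are single arrays and bars are group means, and the vertical axes differ between panels and do not start at 0. All 4 sets of ASNS, the sets of NUPR1 and ATF4 and the brighter sets of TRIB3 and SESN2 show separate groups, with miR-490 lower. PPP1R15A is separated with miR-490 higher, while DDIT4 and CHAC1 vary widely within a group.

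ATF4 itself was read by 1 probe set, whose x_at suffix in the manufacturer's naming warns that some of its probes may also match other transcripts. Its log2 level was 11.72 and 11.75 in the miR-490 arrays, against 11.88 and 11.85 in the control arrays. The groups were 0.10 apart at their nearest points, and the arrays of each group 0.03 apart. The log2 fold change was -0.13 with a standard error of 0.065 (95% interval -0.30 to 0.040, n = 2 each). With each array left out in turn it stayed between -0.145 and -0.115. This interval and all later ones are for single probe sets. They are adjusted neither for the number of sets nor for the choice of members and lists on these data. An interval that leaves out 0 is therefore not read as a change.

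DDIT3, also called CHOP, is the bZIP factor that ATF4 switches on under lasting stress and that promotes cell death. Its first probe set, 11758347_s_at, read 6.72 and 6.61 with miR-490, against 6.66 and 6.74 in controls. Its second, 11758198_s_at, read 6.57 and 6.58 with miR-490, against 6.61 and 6.53 in controls. Both sets overlapped between the groups. The log2 fold changes were -0.035 (95% interval -0.24 to 0.17) and 0.0050 (-0.17 to 0.18), so the intervals take in differences of up to those bounds in either direction.

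TRIB3, PPP1R15A and NUPR1 act as brakes or modifiers of the response. TRIB3 is a pseudokinase that is induced by ATF4 and DDIT3 and dampens their activity. Its brighter set, 11719811_a_at, read 6.70 and 6.77 with miR-490, against 6.91 and 7.03 in controls, a log2 fold change of -0.235 with a standard error of 0.078 (95% interval -0.44 to -0.031). The other set, 11751172_a_at, read 4.70 and 4.76 with miR-490, against 4.71 and 4.77 in controls, with a log2 fold change of -0.010 (-0.19 to 0.17). The lower level of TRIB3 was thus seen in 1 of its 2 sets, and the set without it lay below the level of the median probe set.

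PPP1R15A, also called GADD34, guides a phosphatase to eIF2 and so ends the block of translation. It read 7.58 and 7.70 with miR-490, against 7.47 and 7.54 in controls. Both miR-490 arrays lay above both control arrays, by 0.040 at the nearest points, which is less than the 0.12 between the miR-490 arrays. The log2 fold change was 0.135 with a standard error of 0.078 (95% interval -0.069 to 0.34). It is the member whose promoter window holds the cyclic AMP response element printed above, and its x_at set may also match other transcripts.

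NUPR1 is a small stress-induced nuclear protein that works with transcription factors. It read 9.91 and 9.83 with miR-490, against 10.07 and 10.12 in controls. The groups were 0.16 apart at their nearest points, and arrays of 1 group at most 0.080 apart. The log2 fold change was -0.225 with a standard error of 0.070 (95% interval -0.41 to -0.041).

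ASNS makes asparagine from aspartate and glutamine, and CHAC1 breaks down glutathione. The brightest set of ASNS, 11716365_x_at, read 9.69 and 9.64 with miR-490, against 9.95 and 9.88 in controls. The set 11716364_s_at read 9.20 and 9.21 with miR-490, against 9.54 and 9.44 in controls. These 2 sets gave log2 fold changes of -0.25 with a standard error of 0.069 (95% interval -0.43 to -0.069) and -0.285 with a standard error of 0.071 (-0.47 to -0.098). In both, the lower level was shared by the 2 miR-490 arrays. The set 11744763_x_at read 9.49 and 9.38 with miR-490, against 9.68 and 9.65 in controls, and 11748793_a_at read 9.39 and 9.20 with miR-490, against 9.55 and 9.58 in controls. Their log2 fold changes were -0.23 (95% interval -0.42 to -0.038) and -0.27 (-0.50 to -0.037). The 4 sets therefore differed by 0.055 at most in their log2 fold change. They are annotated to 1 gene and were read in the same RNA, so they are not 4 independent measurements. The suffix of 11716365_x_at and 11744763_x_at, like that of the ATF4 set, warns that some probes may also match other transcripts. Over the 4 sets, the fold change with any 1 array left out stayed between -0.365 and -0.175.

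CHAC1, the other member with the ATF4 composite site in its promoter window, did not show the separation of ASNS. Its brighter set, 11722407_a_at, read 6.80 and 7.15 with miR-490, against 7.04 and 7.10 in controls. One miR-490 array was below both controls and the other above both, and the log2 fold change was -0.095 with a standard error of 0.13 (95% interval -0.44 to 0.25). The dimmer set, 11742287_a_at, read 4.03 and 4.57 with miR-490, against 4.90 and 4.28 in controls, with a log2 fold change of -0.29 and an interval of -1.01 to 0.43. Its control arrays were 0.62 apart, more than the difference between the group means. Without miR-490 replicate 1 the log2 fold change of the brighter set was 0.080, and without control replicate 1 that of the dimmer set was 0.020.

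DDIT4 and SESN2 connect the response to growth control, since both restrain mTORC1, the kinase complex that drives protein synthesis. DDIT4, also called REDD1, read 11.78 and 11.98 with miR-490, against 11.93 and 11.65 in controls. The groups overlapped, the control arrays being 0.28 apart, and the log2 fold change was 0.090 with a standard error of 0.13 (95% interval -0.25 to 0.43). Without control replicate 2 it was -0.050, and without miR-490 replicate 2 it was -0.010. The brighter set of SESN2, 11718325_at, read 8.0 and 8.01 with miR-490, against 8.11 and 8.13 in controls, with a log2 fold change of -0.115 and a standard error of 0.064 (95% interval -0.28 to 0.052). The other set, 11718324_s_at, read 6.96 and 7.03 with miR-490, against 7.01 and 7.0 in controls, with a log2 fold change of -0.010 (-0.19 to 0.17). SESN2 was thus separated on 1 of its 2 sets, and both lay above the level of the median probe set.

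**Figure D2:**
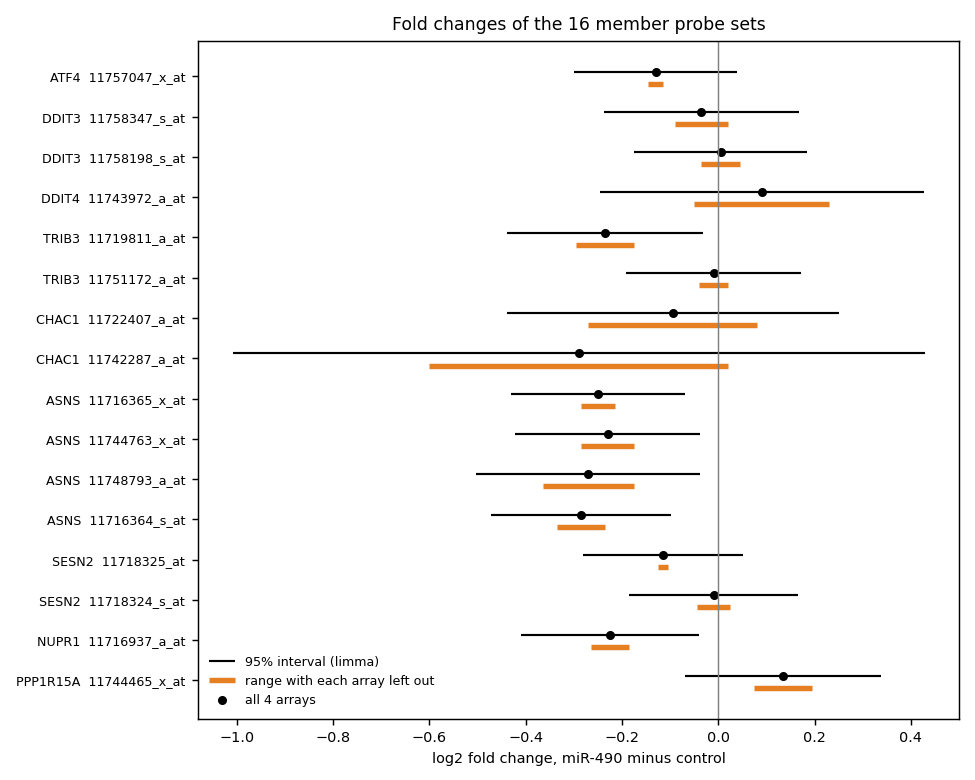
Log2 fold change, miR-490 minus control, of the 16 member probe sets (points) with the unadjusted 95% interval from limma (thin lines) and the range of values with each of the 4 arrays left out in turn (thick lines). The 4 sets of ASNS lie between -0.285 and -0.23, and the widest interval is that of the dimmer set of CHAC1, from -1.01 to 0.43.

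The difference between the vectors was also set against the gap between replicate arrays. In 9 of the 16 probe sets the difference of the group means was larger than the larger of the within-group gaps, against 21.7% of all probe sets. These 9 were the 4 sets of ASNS, 1 set each of TRIB3 and SESN2, and the sets of ATF4, NUPR1 and PPP1R15A. They are the same sets whose groups did not overlap. As the members were chosen with the results of this contrast known, the count is a description and nothing is read from the share. ATF4 and the brighter set of SESN2 had the narrowest replicates, with gaps of 0.030 and 0.020, and differences of 0.13 and 0.115 in size. CHAC1 and DDIT4 had the widest, with gaps of 0.28 to 0.62. Where a gene had 2 sets, DDIT3 showed overlap on both, whereas TRIB3 and SESN2 were split between a separated brighter set and an overlapping dimmer one. An exact two-sided permutation test of any 1 set cannot go below p = 0.333 in this design.

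**Figure D3:**
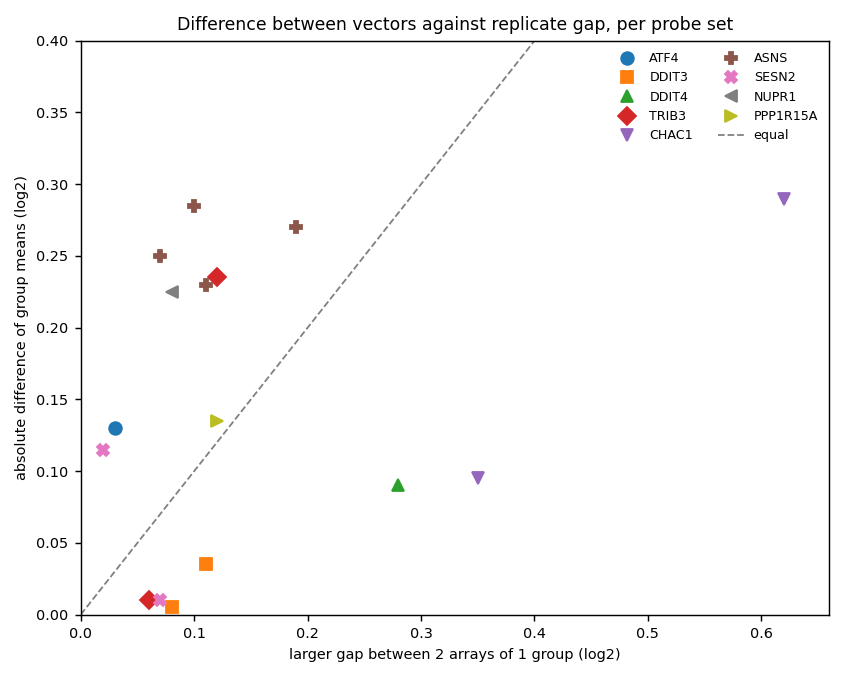
Absolute difference of the group means (vertical, log2) against the larger gap between the 2 arrays of a group (horizontal, log2) for each member probe set. The dashed line marks equality, with 9 of the 16 sets above it and both sets of CHAC1 and the set of DDIT4 far below it.

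The widest range over the 4 arrays among the brightest sets of the members was that of CHAC1, at 0.35. Among genes above the level of the median probe set, those whose mean-centred log2 values differed least from CHAC1 over the 4 arrays were TMC3 (root mean square difference 0.019), DERL3 (0.023), SLC60A2 (0.025), ODAPH (0.025) and CHRD (0.025). Like CHAC1, each was lowest in miR-490 replicate 1. With 4 arrays and 10210 genes compared, this likeness is a description of these arrays.

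Other genes of the integrated stress response were read at the brightest probe set of each gene, from a list of 65 genes in 7 roles of which 64 were measured. None passed the threshold over all probe sets (limma), in either direction. At an unadjusted p under 0.05, 5 were lower and 2 higher, beside the 2.48% and 2.66% of all probe sets given above, and 25 were lower and 7 higher without overlap of the groups, beside 15.6% on each side. These shares are over all probe sets, whereas the listed genes were read at their brightest sets. With 1 brightest set per gene, 1121 of 18132 genes had an unadjusted p under 0.05 (limma), both directions together. The median log2 fold change of the 64 was -0.045. The list was drawn up with earlier results of these arrays known, so these counts too are descriptive.

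Upstream of ATF4, the eIF2 kinases and eIF2 subunits had 5 of 7 genes with lower means and a median log2 fold change of -0.090. The lowest was EIF2S2, a subunit of eIF2, at -0.14 (95% interval -0.31 to 0.033), and the highest EIF2AK1, the heme-regulated kinase, at 0.010 (-0.16 to 0.18). Both places depend on the probe set, since the 2 other sets of EIF2S2 ran from -0.040 to 0.060 and the 7 others of EIF2AK1 from -0.275 to 0.205. On the phosphatase side, with PPP1R15B and the catalytic subunits of the enzyme that PPP1R15A guides, 2 of 4 genes were lower, from -0.11 for PPP1CB, whose 5 other sets ran from -0.14 to 0.070, to 0.045 for PPP1CA, whose other set gave 0.085.

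Among bZIP factors that pair with ATF4 or act beside it, 7 of 8 had lower means and 6 of these did not overlap between the groups, beside 49.0% and 15.6% of all probe sets. CEBPG, a C/EBP partner of ATF4, read 8.45 and 8.37 with miR-490, against 8.60 and 8.53 in controls, a log2 fold change of -0.155 (95% interval -0.34 to 0.034), with its other set at -0.16. ATF5, which is controlled through translation much as ATF4 is, was at -0.135 (-0.30 to 0.035) with 3 other sets between -0.115 and -0.025, and CEBPB, another C/EBP partner, at -0.045 (-0.21 to 0.12). ATF3 stood on the other side. It is a stress and immediate early factor and read 6.84 and 7.02 with miR-490, against 6.54 in both control arrays, a log2 fold change of 0.39 (0.16 to 0.62). The 6 other probe sets of ATF3 ranged from -0.065 to 0.27.

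Downstream, the genes of amino acid supply had 12 of 13 lower means, 8 of them without overlap, beside 49.0% and 15.6% of all probe sets, and a median of -0.090, beside 0. These counts are not read as particular to the group, since its genes were listed with these results known. Their lowest member was PSAT1, an enzyme of serine synthesis, with a log2 fold change of -0.365 and 7 other sets between -0.445 and -0.215, and their highest was SLC3A2, the shared heavy chain of several amino acid transporters, at 0.015, with 6 other sets between 0.050 and 0.070. Further effectors, a mix of reported ATF4 targets and relatives of the members, had 11 of 16 lower means and a median of -0.0475. They ranged from CHAC2, the relative of CHAC1, at -0.275 (95% interval -0.50 to -0.045) to NUPR2, the relative of NUPR1, at 0.305 (-0.045 to 0.65). Both were dim, CHAC2 reading 4.02 and 4.20 with miR-490, against 4.36 and 4.41 in controls, and NUPR2 3.19 and 3.36 with miR-490, against 3.13 and 2.81 in controls. NUPR2 was thus opposite in sign to the bright NUPR1.

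Genes linked to DDIT3 activity and cell death, with the relatives of TRIB3, had 4 of 7 lower means and a median of -0.025, from TRIB1, a relative of TRIB3, at -0.18 (95% interval -0.44 to 0.083) to BBC3, a death-promoting BCL2 relative, at 0.085 (-0.20 to 0.37). Their other sets gave -0.115 for TRIB1 and 0.035 for BBC3. The inputs of mTORC1 had 3 of 9 lower means and a median of 0.010. DDIT4L, the relative of DDIT4, read 8.79 in both miR-490 arrays, against 8.53 and 8.63 in controls, a log2 fold change of 0.21 (0.024 to 0.40), while DEPTOR, an inhibitory partner of the mTOR kinase, was at -0.15 (-0.52 to 0.22) with 2 other sets at -0.14 and -0.005.

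**Figure D4:**
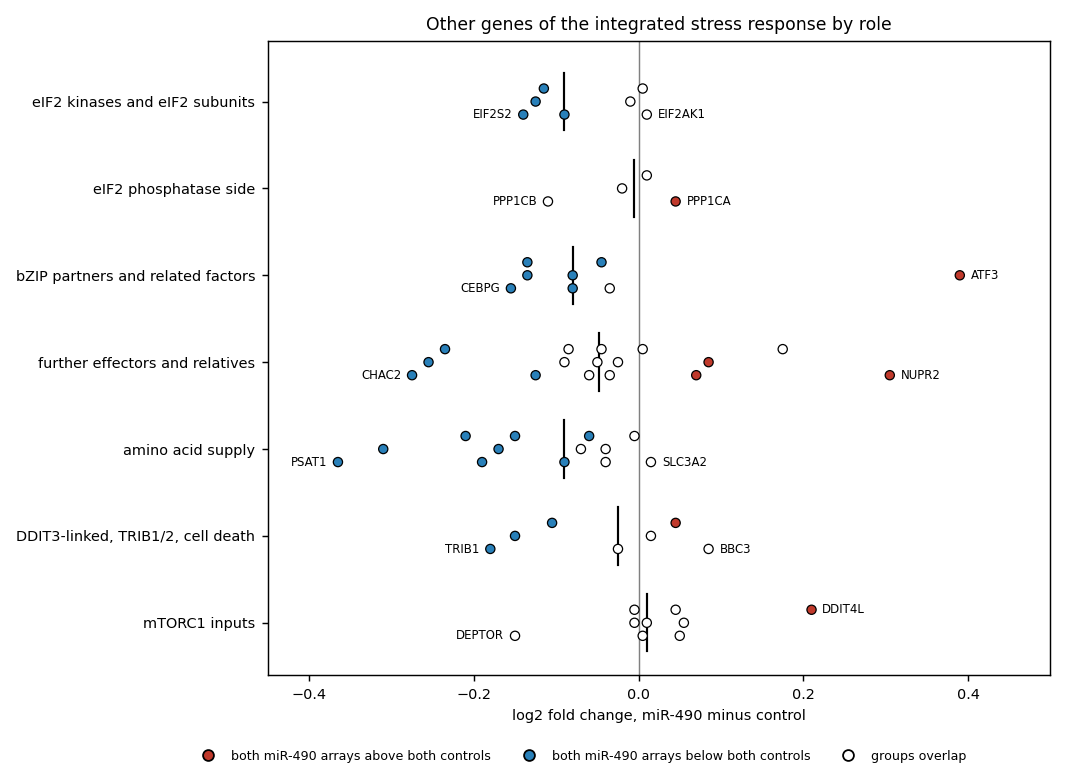
Log2 fold change, miR-490 minus control, of 64 other genes of the integrated stress response by role, each at its brightest probe set. Vertical bars are medians, filled points mark genes whose groups do not overlap, and the height within a role has no meaning. Amino acid supply reaches from PSAT1 at -0.365 to SLC3A2 at 0.015, and ATF3 at 0.39 is the highest of all.

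The ATF4 composite site was also counted in the promoters of this list. Of the 47 listed genes with a window, 10 held TGATGNAA in at least 1 window, or 21.3%, against 4.46% of all 27305 genes with a window. The list includes genes named because they are reported ATF4 targets, so the share was not tested. Of the 10 genes with the site, 6 had lower and 4 higher means with miR-490, ranging from CEBPG at -0.155 to ATF3 at 0.39. ASNS, at -0.25, and CHAC1, at -0.095, on their brightest sets, also hold the site in these windows. PPP1R15B at 0.010, SLC3A2 at 0.015 and TSC2 at 0.050 lay within 1 standard error of 0. On the lower side, FGF21 at -0.060, SLC7A1 at -0.040 and CHAC1 did too, so the direction of these genes is not settled.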

How the data were processed

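RNA from U87MG cells was labelled with biotin from 100 ng of total RNA and hybridised to PrimeView arrays, per the labels' protocols. The authors deposited log2 values, 1 per probe set and array, and RMA is the tool named in the submitters' processing notes. RMA makes the arrays' distributions alike, so a shift of most transcripts cannot be seen, and it can compress differences of dim signals. Its version is not given in the sources used here.

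Groups and replicate numbers came from the titles. The two-sided test was limma's (version 3.58.1, under R 4.3.3), fitted to all 49293 probe sets without a filter on dim ones; lmFit and eBayes had 2 residual and 2.73 prior degrees of freedom, and Benjamini-Hochberg adjusted p-values were read at 0.05. The fit was tested on simulated data with changes larger than any member's, so that test says nothing about finding differences of the members' size. In the platform annotation, 44988 probe sets had 1 gene symbol, 1832 several and 2473 none. Log2 fold changes had standard errors with a median of 0.0842, a precision limited by the number of arrays.

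Members and lists were chosen with earlier results of these data known. Named were all member probe sets, the highest and lowest gene of each role of the list, ATF3, ATF5, CEBPB and CEBPG, and the 5 genes most like the most variable member. Deviations of same-numbered arrays from their group means correlated at -0.0844 over probe sets, and the labels do not pair them. Figures were drawn with matplotlib 3.10.9.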

Additional observations from a re-analysis of the deposited data

How the results depend on the processing

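No call changed under any of the 12 alternatives run, since 0 member probe sets, 0 listed genes and 0 of all features passed the threshold in each. The lowest adjusted p over all features and alternatives was 0.335, under an intensity trend with a robust prior, and the count at an unadjusted p under 0.05 ranged from 2301 to 2549 of 49293 probe sets under the other normalizations and variance priors. The median log2 fold change of the members stayed between -0.16, without miR-490 replicate 2, and -0.10, without miR-490 replicate 1, and was -0.115 with 1 probe set per gene. With the replicate number as a block, 0 probe sets passed and 1936 had an unadjusted p under 0.05; the members' median was -0.12, and the block changed no call. Leaving out 1 array takes the spread from the other group alone, and gave 1679 to 3048 probe sets at that unadjusted level. Of 176 alternative values of single member sets, 11 had the other sign. They belonged to 7 sets, those of DDIT3, DDIT4 and CHAC1, and the dimmer sets of TRIB3 and SESN2. The sets of ATF4, ASNS, NUPR1 and PPP1R15A and the brighter sets of TRIB3 and SESN2 kept their sign wherever they were fitted. That outcome was largely fixed beforehand, and nothing is read from it. Groups without overlap cannot change sign when 1 array is left out. The variance priors, the block and the choice of probe sets leave the fold change of a set as it was. When the sets of a gene were averaged, 2 values moved by more than the SD between replicates, TRIB3 to -0.1225, against -0.235 for its brighter set, and SESN2 to -0.0625, against -0.115, as that mean takes in their dimmer sets at -0.010 each.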
